A study of Mus musculus with 4 samples.

Results

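The heat shock proteins described here are the cytosolic and mitochondrial chaperones encoded by Hsph1, Hspa8, Hspa1b, Hsp90aa1, Dnaja1, Dnajb1, Hspb1, Hspd1 and Hspe1. They were chosen by name, as the probe sets whose single symbol in the array's annotation is one of these genes. All 9 genes were found, on 11 probe sets, among the 8251 genes that the array names, and for 8 of the 9 every array read above 174 intensity units, the floor under which values were not ordered. RNA came from epididymal white fat of male C57 BL6 mice aged 3 to 4 months. The 4 groups were control mice, whose handling the labels do not describe, and mice that received 3 nmol/hr of CL 316243 for 1, 3 or 6 days; this compound activates the β3-adrenergic receptor, through which noradrenaline stimulates fat cells. Each group was 1 array of RNA pooled over mice, so no difference has a replicate check and no test was run. How many mice went into a pool is not given in the sources consulted.

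Heat shock proteins are chaperones: they hold, fold or release other proteins, and cells make more of several of them when proteins misfold. The HSP70 proteins bind exposed stretches of unfolded protein, J-domain proteins deliver substrates and trigger ATP hydrolysis by HSP70, and exchange factors such as HSP110 reset it. HSP90 acts later, on nearly folded clients such as kinases and steroid receptors, small heat shock proteins hold unfolded proteins without using ATP, and HSP60 with its lid HSP10 folds proteins inside mitochondria. The stress-induced genes of this family are switched on by heat shock factor 1, which binds heat shock elements, runs of alternating GAA and TTC units near the gene start.

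Promoter sequences are shown because the 9 genes include classical targets of heat shock factor 1 while their changes on these arrays differed from gene to gene. RefSeq windows of GRCm38.p6 that run from 250 bases before to 50 bases after each annotated start were found for 7 of the genes. Hspa8 and Hsp90aa1 had none in the table. The search was for GAANNTTC and TTCNNGAA, each of which reads the same on both strands, and neighbouring matches may share a unit. Of the 7 genes, 6 had a match in a window of at least 1 start, and Dnajb1 had none. Among all 27025 genes with a window, 17% had a match. Runs of 3 alternating units were in windows of Hsph1, Hspd1 and Hspe1, against 0.662% of all genes. Each sequence below is the 130 bases just before a start, 5′ to 3′ on the gene's own strand, with matches in capitals. Hsph1 lies on the minus strand at chr5:149636316-149636445, Hspa1b on the minus strand at chr17:34959239-34959368, Dnaja1 on the plus strand at chr4:40722338-40722467, Hspb1 on the plus strand at chr5:135887789-135887918 and Hspe1 on the plus strand at chr1:55088018-55088147.
Hsph1: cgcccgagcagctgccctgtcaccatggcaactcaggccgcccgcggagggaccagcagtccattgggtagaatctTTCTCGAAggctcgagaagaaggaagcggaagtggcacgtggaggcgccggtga
Hspa1b: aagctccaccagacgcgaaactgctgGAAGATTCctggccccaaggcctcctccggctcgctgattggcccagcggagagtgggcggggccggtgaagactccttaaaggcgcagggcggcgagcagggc
Dnaja1: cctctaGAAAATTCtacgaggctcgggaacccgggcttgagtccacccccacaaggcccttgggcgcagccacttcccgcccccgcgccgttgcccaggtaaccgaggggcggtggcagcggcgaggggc
Hspb1: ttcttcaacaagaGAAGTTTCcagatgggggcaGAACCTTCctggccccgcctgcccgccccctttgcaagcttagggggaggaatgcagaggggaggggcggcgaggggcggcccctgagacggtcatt
Hspe1: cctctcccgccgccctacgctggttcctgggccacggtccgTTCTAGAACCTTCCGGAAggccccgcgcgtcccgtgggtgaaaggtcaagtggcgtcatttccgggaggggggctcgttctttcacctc

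The first base of the Hsph1 match above lay 54 bases before that start, and its run of 3 units began 16 bases after the start. Hspd1 and Hspe1 are neighbours that point away from each other, and the capitals printed for Hspe1 are the same genomic bases as the matches of Hspd1. They began 89 bases before the Hspe1 start and, read on the other strand, 144 bases before one of the starts of Hspd1, which lay 216 bases from the Hspe1 start. Another annotated start of Hspd1 lay 95 bases on the other side of the Hspe1 start and had no match in its window. Hspb1 had matches at 117 and 97 bases before its start, Hspa1b at 104 and Dnaja1 at 124 before one of its starts. The other annotated starts of Dnaja1 had no match in their windows. A match is a description of the letters and was not measured as a bound site.

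**Figure D1:**
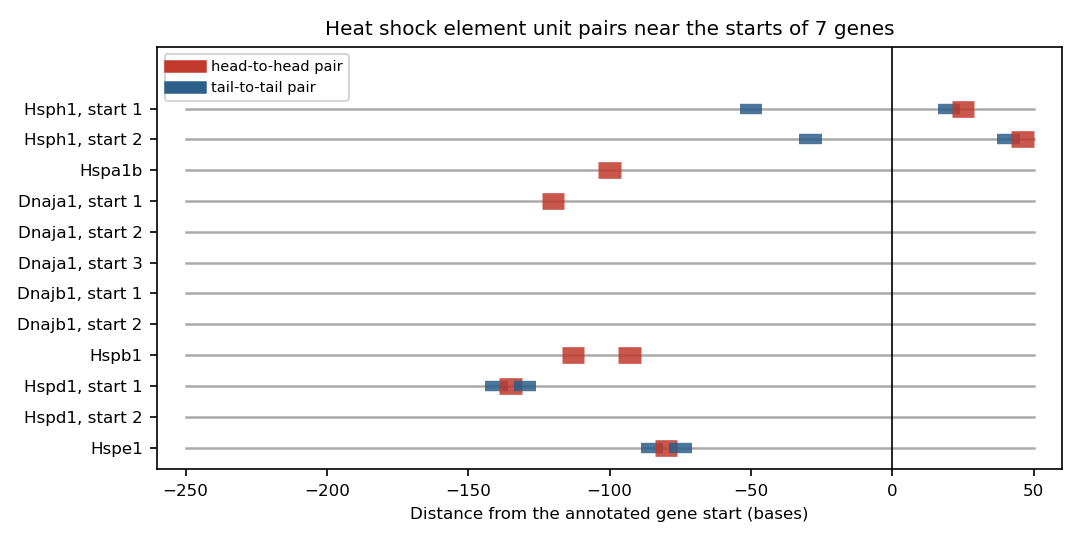
Positions of heat shock element unit pairs (coloured blocks, to scale) from 250 bases before to 50 bases after each annotated start of 7 genes, in bases on the horizontal axis. Overlapping blocks mark the runs of 3 units of Hsph1, Hspd1 and Hspe1, and the line of Dnajb1 is empty.

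At day 1 the genes did not move as a block. Hsph1 was 3.51-fold higher than in control and was the single gene of the 9 past 2-fold. Hsp90aa1 was 1.61-fold higher, Dnajb1, Hspd1, Hspa8 and Hspe1 were between 1.24-fold and 1.41-fold higher, Hspa1b was 1.39-fold lower and Dnaja1 1.97-fold lower. By day 3 Hsph1 was below its control level, and Dnaja1 was lower than control on each treated day.

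Hsph1 encodes HSP110, an exchange factor for HSP70 that also helps to pull aggregates apart. Its intensity was 1541 in control, 5409 at day 1, 1147 at day 3 and 1017 at day 6. The day 1 array stood apart from the other 3, which lay within 1.51-fold of control. The log2 change was 1.81 at day 1, -0.43 at day 3 and -0.60 at day 6, and by day 3 the gene was 4.72-fold lower than at day 1. Ranked by change among the 6254 genes above the floor on at least 1 array, Hsph1 was 169th from the top at day 1. Between probe sets of 1 gene, the day 1 change had an error of 0.33 (log2), estimated from 794 genes with at least 2 probe sets above the floor, so that 3 errors came to 2-fold. The errors for days 3 and 6 were 0.27 and 0.25, with 3 errors at 1.76-fold and 1.67-fold. They cover the disagreement between probe sets on the same arrays. Errors of labelling or hybridization that both probe sets share, and differences between mice or pools, are not covered.

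Past 2-fold at day 1 were 1 of the 8 genes above the floor upward and 0 downward, beside 7.5% and 8.36% of all 6254 genes. The lower fold of 1.5 was passed upward by 2, Hsph1 and Hsp90aa1, beside 15.9% of all genes, and downward by 1, Dnaja1, beside 18.4%. These shares are near those of all genes on that array. The median log2 change of the 8 was 0.36 and that of all genes -0.02. Of the 8, 6 had a change above 0, beside 2836 of all 6254 genes. The changes of Hspa8 (0.32) and Hspe1 (0.31) were smaller than the error between probe sets, 0.33. Dnaja1 lay just short of 2-fold at 1.97-fold, and no other gene of the 8 lay between 1.61-fold and 3.51-fold.

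**Figure D2:**
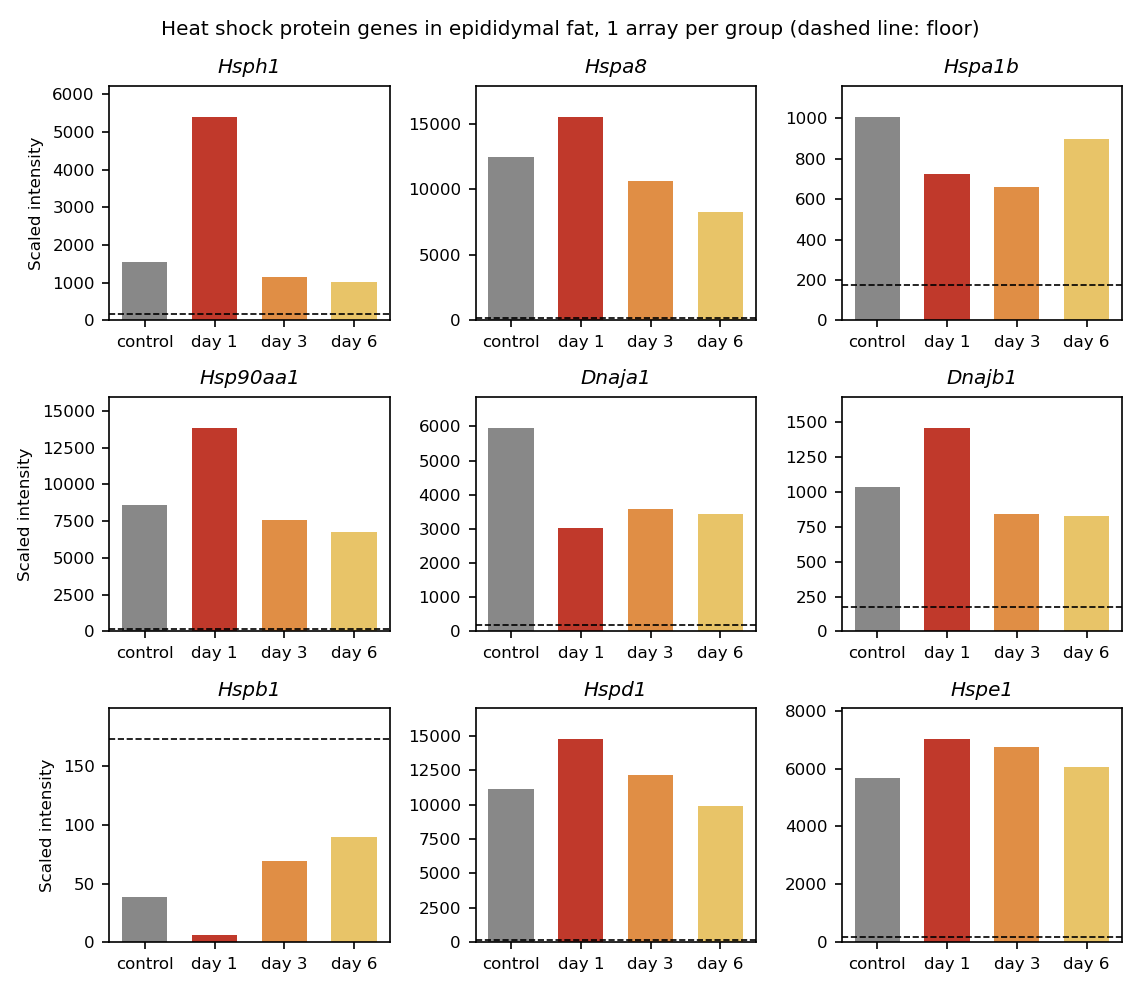
Scaled intensity (vertical axes, starting at 0, with a scale of their own in each panel) of the 9 genes on the control, day 1, day 3 and day 6 arrays, 1 array per bar, with the floor as a dashed line. Hsph1 reached 5409 at day 1 against 1541 in control, Dnaja1 was below its control bar on each treated day, and Hspb1 stayed under the floor throughout.

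Hspa8 encodes HSC70, the HSP70 made in all cells without stress. Its intensity was 12442 in control, 15538 at day 1, 10631 at day 3 and 8302 at day 6. The highest array was day 1 and the lowest day 6, where the gene was just short of 1.5-fold lower than control (log2 change -0.58). Hspa1b encodes a stress-induced HSP70, and read 1009 in control, 724 at day 1, 659 at day 3 and 898 at day 6. All 3 treated arrays were below control, the lowest being day 3 at 1.53-fold lower. Hspa1a, its near-identical copy with a probe set of its own, read 561 in control, 577 at day 1, 370 at day 3 and 383 at day 6. Transcripts of the 2 copies can bind the same probes, so the split between them is uncertain, and at day 1 Hspa1a was 1.03-fold above control.

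Hsp90aa1 encodes the stress-inducible form of cytosolic HSP90. Its bright probe set read 8606 in control, 13860 at day 1, 7570 at day 3 and 6739 at day 6. Day 1 was again the highest array, with a log2 change of 0.69, and day 6 the lowest, with -0.35. A second probe set of the gene was under the floor on all 4 arrays, between -50 and 79, and gave no fold.

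The J-domain proteins Dnaja1 and Dnajb1 both stimulate cytosolic HSP70, and their transcripts went in opposite directions at day 1. Dnaja1 read 5965 in control, 3033 at day 1, 3578 at day 3 and 3439 at day 6. Every treated array was below control, by 1.97-fold, 1.67-fold and 1.73-fold, and the 3 treated arrays lay within 1.18-fold of each other. Its change ranked 551st from the bottom of the 6254 genes at day 1, 418th at day 3 and 236th at day 6. Dnajb1, the main J-domain protein induced by heat, read 1032 in control, 1460 at day 1, 839 at day 3 and 828 at day 6. It was 1.41-fold higher than control at day 1 and 1.25-fold lower at day 6. Its order of arrays (day 1, control, day 3, day 6, from high to low) was that of Hsph1, Hspa8 and Hsp90aa1. That order rests on small steps, as days 3 and 6 differed by 1.01-fold for Dnajb1 and 1.12-fold for Hsp90aa1. Other chaperone genes had it too, among them Stip1, Hspa5 and Hsp90b1.

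Hspb1 encodes the small heat shock protein that is named HSP27 in humans. Its probe set read 39 in control, 6 at day 1, 69 at day 3 and 90 at day 6, all under the floor, so no fold is given and no order can be read from these values.

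Hspd1 and Hspe1 encode the mitochondrial chaperonin HSP60 and its lid HSP10, and share the sequence between them shown above. Hspd1 read 11148 in control, 14787 at day 1, 12152 at day 3 and 9876 at day 6. Hspe1 read 5674 in control, 7034 at day 1, 6750 at day 3 and 6036 at day 6. Both were highest at day 1 and lower on each later array, with log2 changes against control of 0.41, 0.12 and -0.17 for Hspd1 and of 0.31, 0.25 and 0.09 for Hspe1. A dim second probe set of Hspd1 did not follow: it read 241 in control, 85 at day 1, 221 at day 3 and 655 at day 6. With the mean of both probe sets the changes of Hspd1 became -0.03 at day 1 and 0.63 at day 6.

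**Figure D3:**
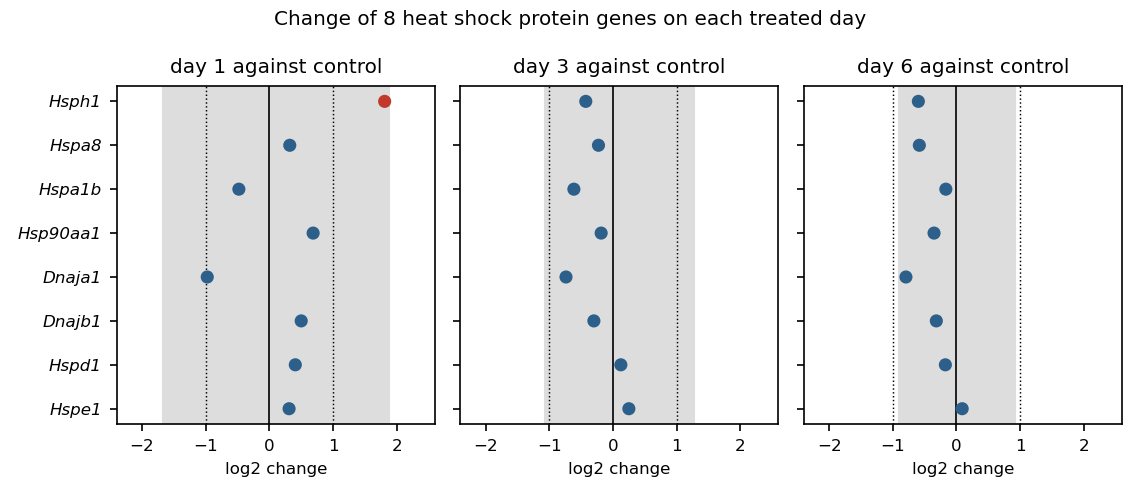
log2 change against control (horizontal axes) of the 8 genes above the floor at day 1, day 3 and day 6, 1 array per group. Grey bands hold the central 95% of all 6254 genes, dotted lines mark 2-fold, and Hsph1 at day 1, at 1.81, is the single red point past 2-fold. That point lies inside the grey band, whose upper edge at day 1 is at 1.88.

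At days 3 and 6 most of the 8 genes were below their control levels, with Hspe1 above on both days and Hspd1 above at day 3. Of the 8, 0 were past 2-fold in either direction at day 3, beside 3.81% and 3.26% of all genes, or at day 6, beside 1.73% and 1.63%. At 1.5-fold, 0 were higher and 2, Hspa1b and Dnaja1, were lower at day 3, beside 9.91% and 10.6% of all genes. At day 6, 0 were higher and 2, Hsph1 and Dnaja1, were lower, beside 7.95% and 7.82%. The median log2 change of the 8 was -0.26 at day 3 and -0.33 at day 6, and that of all genes was 0.00 on both days. At day 3, 6 of the 8 had a change under 0, beside 3063 of all 6254 genes. At day 6, 7 of the 8 did, with Hspe1 as the exception, beside 3006 of all 6254. The day 3 changes of Hspa8 (-0.23), Hsp90aa1 (-0.185), Hspd1 (0.12) and Hspe1 (0.25) were smaller in size than the error between probe sets, 0.27. The day 6 changes of Hspa1b (-0.17), Hspd1 (-0.17) and Hspe1 (0.09) were smaller than the error of that day, 0.25. None of the 8 passed 3 errors at day 3 (1.76-fold), and Dnaja1 alone did at day 6 (1.67-fold). These comparisons share the control array. Against day 1 rather than control, 1 gene, Hsph1, was at least 2-fold lower at day 3, beside 6.28% of all genes. Dnaja1 was the single gene of the 8 with a change above 0 in that comparison, beside 3198 of all 6254 genes.

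The wider chaperone system was described with 8 further lists of cytosolic and mitochondrial genes, of which 73 genes were measured and 65 were above the floor. At day 1, 3 of the 65 (Bag3, Grpel2 and Tcp1) were past 2-fold upward and 2 (Hsbp1 and Cryab) downward, with a median log2 change of -0.01. These counts are below the shares of all genes given above, 7.5% and 8.36%. Bag3, which couples HSP70 to selective autophagy, read 1336 in control, 3739 at day 1, 1372 at day 3 and 1416 at day 6. It was 2.80-fold higher than control at day 1 by this probe set and 2.21-fold by its other one, and back within 1.06-fold of control on the later days by the brighter. Grpel2, an exchange factor for mitochondrial HSP70, read 291 in control, 859 at day 1, 460 at day 3 and 450 at day 6, and was 2.95-fold, 1.58-fold and 1.55-fold higher than control. Hspa9, the mitochondrial HSP70 itself, was 1.66-fold higher at day 1. The median of the 8 measured exchange factors and HSP70 regulators of the cytosol was 0.13 at day 1. Of these, 5 were above 0, beside 2836 of all 6254 genes, and 3 below. Among the 3 was Bag1, an exchange factor that was 1.45-fold lower than control.

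Of the 5 other HSP70 and HSP110 genes above the floor, 0 passed 1.5-fold at day 1 by their brightest probe sets. By these, all 5 had a change under 0 at days 3 and 6, beside 3063 and 3006 of all 6254 genes. Hspa2 read 248 in control and was under the floor on each treated array, so its change, -0.51 on each day, is a bound. For Hspa4, an HSP110 relative of Hsph1, the direction depends on the probe set. At day 1 its brightest was 1.01-fold lower than control. The others were 1.78-fold, 1.97-fold, 1.33-fold and, from a value under the floor in control, at least 1.11-fold higher. For those above the floor in control, in the same order, log2 changes were 0.09, 0.59 and -0.05 at day 3. At day 6 they were -0.40, 0.09 and -0.49, and the one under the floor was higher by at least 0.70. Of 10 HSP90 cochaperone genes above the floor, 0 passed 2-fold on any day, with medians of 0.22, -0.27 and -0.28. No further HSP90 gene was among them. Fkbp4, a prolyl isomerase that works with HSP90 on steroid receptors, was lower than control by 1.61-fold, 1.56-fold and 1.61-fold on days 1, 3 and 6. Of 12 other cytosolic J-domain genes, 0 passed 2-fold at day 1 and 1, Dnajb2, was 2.23-fold lower at day 3. Among the regulators of heat shock transcription, Hsf2 and Hsf4 read below 0 on all 4 arrays and Hsf1 was not analysed here. Hsbp1, which encodes a binding protein and negative regulator of heat shock factor 1, read 3059 in control, 1374 at day 1, 2899 at day 3 and 3309 at day 6, and was 2.23-fold lower than control at day 1.

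Small heat shock proteins other than Hspb1 were mostly under control. Hspb8, the partner of Bag3, read 6188 in control, 9592 at day 1, 3013 at day 3 and 4303 at day 6. It was 1.55-fold higher at day 1 and 2.05-fold lower at day 3 by this brighter probe set. A dim second one read 174 in control, 362 at day 1, 26 at day 3 and 103 at day 6. By that one Hspb8 was 2.08-fold higher at day 1. Its control value was at the floor and days 3 and 6 were under it, so no drop could be read. Cryab, which encodes αB-crystallin, was 2.08-fold, 1.86-fold and 2.07-fold lower on days 1, 3 and 6 by its brighter probe set, and its other one was under the floor on all arrays. At day 6 it was the single one of the 65 past 2-fold downward, and did not pass with the floor at percentile 60, with the mean over probe sets, without probe sets of shared sequence or with a pseudocount. The 5 genes listed with the small heat shock proteins, Hspb11 by its symbol, had medians of -0.68, -0.88 and -0.35. The day 1 median was the value of Hspb11, which read 278 in control and 116 at day 1. Cryaa read 260 in control and 106 at day 1. Both were under the floor at day 1, so these drops are bounds from low intensities. Hspb11 was 1.45-fold higher than control at day 6. Smooth and skeletal muscle markers, whose cells are rich in small heat shock proteins, had summed intensities of 17506 in control, 12144 at day 1, 10494 at day 3 and 11066 at day 6, with 7 or 8 of 11 above the floor. Their part in these values was not tested.

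The cytosolic chaperonin, which folds actin and tubulin, and the prefoldin that feeds it had 13 genes above the floor. At day 1, 8 of them had a change above 0, beside 2836 of all 6254 genes. Tcp1, one of the ring's subunits, read 692 in control, 1398 at day 1, 811 at day 3 and 605 at day 6, and was 2.02-fold higher than control at day 1. The list's median was 0.14 at day 1, -0.08 at day 3 and -0.35 at day 6. The 11 other mitochondrial chaperones and proteases had 5 members above 0 and 6 below at day 1, 7 above at day 3 and 9 above at day 6. Of all 6254 genes, 2836, 2898 and 2926 were above 0 on those days. The medians of the 11 were -0.11, 0.31 and 0.38.

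The cytosolic and mitochondrial heat shock proteins were set beside the chaperones of the endoplasmic reticulum. At day 1, 1 of 8 heat shock protein genes was past 2-fold upward, with a median log2 change of 0.36, against 7 of 13 endoplasmic reticulum genes above the floor, with a median of 1.01 and 7.5% of all genes past that limit. Manf, a secreted protein induced by endoplasmic reticulum stress, was 3.53-fold higher than control at day 1 and Creld2, another such gene, 3.42-fold. Dnajb9, a J-domain protein of the same compartment, was 2.66-fold, 2.04-fold and 1.96-fold higher on days 1, 3 and 6 by its brighter probe set. Its other one, above the floor on all 4 arrays, gave 5.58-fold, 5.52-fold and 3.91-fold. The list as a whole did not stay raised. At day 3 the median of its 13 genes was -0.18, beside -0.26 for the heat shock proteins, with 5 genes above 0 and 8 below. At day 6 it was -0.45, beside -0.33, with 3 above 0 and 10 below. Dnajb9 was the single gene of the list past 2-fold upward at day 3, beside 3.81% of all genes. No test of the difference between the lists was possible with 1 array per group.

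**Figure D4:**
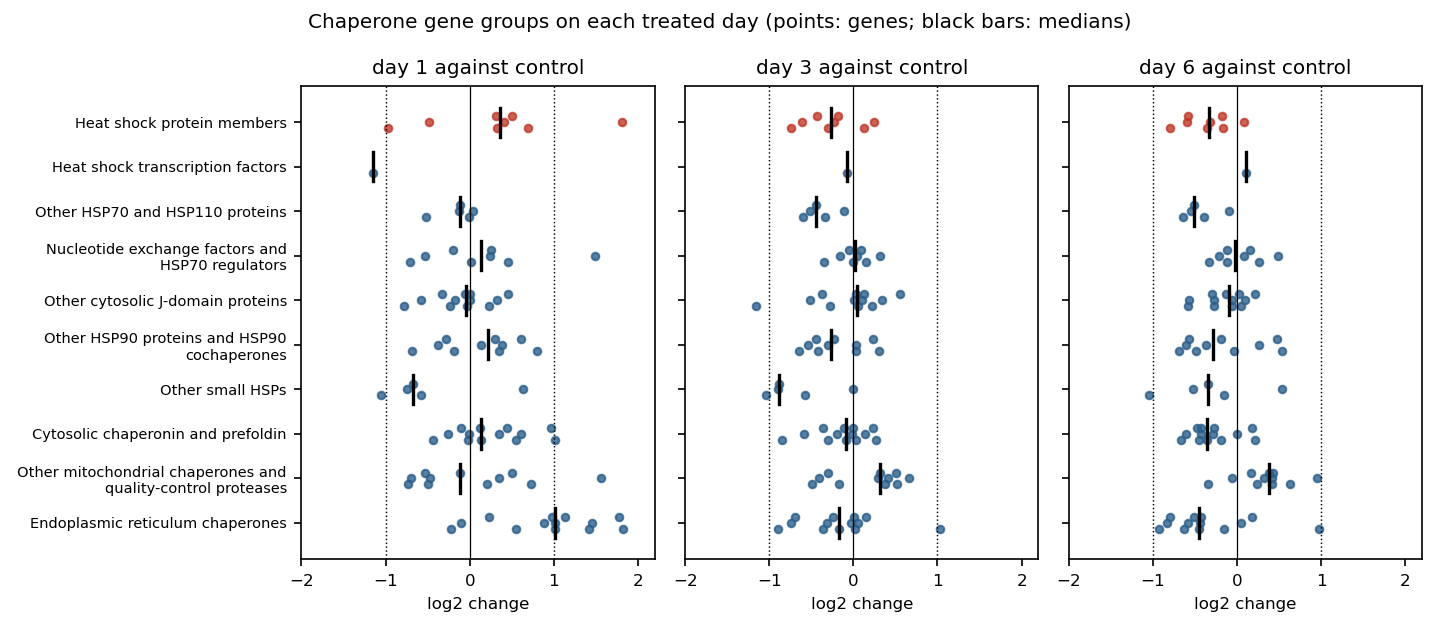
log2 change against control (horizontal axes) at day 1, day 3 and day 6 of every gene above the floor in the heat shock protein set (red) and in 9 further chaperone lists (blue), with medians as black bars and 2-fold as dotted lines. At day 1 the heat shock proteins have their median at 0.36 and the endoplasmic reticulum list at 1.01.

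Hsph1 had the largest range of log2 intensity of the 8 genes, 2.41, against 0.31 for Hspe1, the smallest. Outside the chaperone lists, the 5 genes whose 3 changes lay nearest to those of Hsph1, by Euclidean distance over 3 treated arrays that share a control and among 5296 other genes with a brightest value of at least 2 times the floor, were Pdpn, Uck2, Rab20, Tubb2a and Osmr. Pdpn, which encodes the membrane glycoprotein podoplanin, was 3.76-fold higher than control at day 1, and Uck2, a kinase of the pyrimidine salvage pathway, 3.04-fold. Tubb2a, a β-tubulin, was 3.46-fold and Osmr, the receptor for oncostatin M, 4.13-fold higher. Rab20, a small GTPase, read 254 in control and 1020 at day 1 and was under the floor on days 3 and 6. Among chaperone genes the nearest was Manf, at position 13 of the 5296, and Bag3 was at position 98. The distances were 0.18 for Pdpn, 0.48 for Manf and 0.89 for Bag3.

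**Figure D5:**
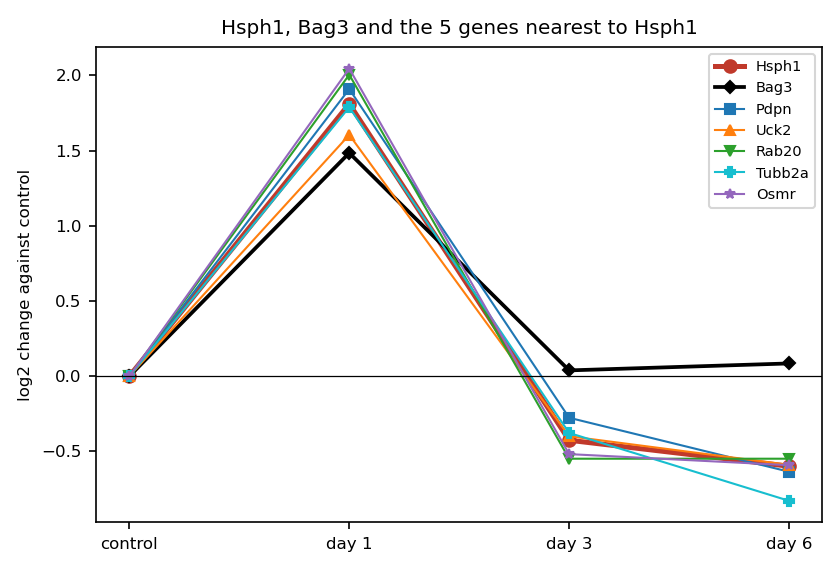
log2 change against control (vertical axis) of Hsph1, of Bag3 and of the 5 genes nearest to Hsph1 on the control, day 1, day 3 and day 6 arrays (horizontal axis, 1 array each, days not to scale). Hsph1 and the 5 genes lie above Bag3 at day 1 and below 0 on the later days, where Bag3 is at 0.04 and 0.08 and Rab20 is drawn at the floor.

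Markers of other cell types differed between the arrays; in pooled tissue RNA fewer cells of a type and less RNA per cell cannot be told apart. The 14 macrophage and myeloid markers measured had summed intensities of 38200 in control, 114685 at day 1, 100870 at day 3 and 47363 at day 6, and 13 or 14 of them were above the floor on each array. The 10 neutrophil markers summed to 7199 in control, 82368 at day 1, 9120 at day 3 and 4662 at day 6, with 5 to 7 above the floor. S100a8 (40273) and S100a9 (26706) made up most of the day 1 sum, while Camp was 1.91-fold and Elane 2.04-fold lower than control on that array. The neutrophil sum, the macrophage and myeloid sum and Hsph1 each had their highest value at day 1. The 9 fat cell markers, all above the floor on each array, summed to 234658 in control, 130168 at day 1, 204701 at day 3 and 233451 at day 6. The 8 testis and epididymis markers summed to 7614 in control, 1847 at day 1, 1820 at day 3 and 12363 at day 6, with 2 to 6 above the floor and the germ cell gene Ldhc below 0 on all arrays. Of them, Lcn5 read 3322 in control, 63 at day 1, 7 at day 3 and 8031 at day 6, and Adam7 2655, 200, 251 and 1847 on the same arrays. The 8 endothelial markers, all above the floor, summed to 15293 in control, 9396 at day 1, 8489 at day 3 and 13429 at day 6. The part of these cell types in the heat shock protein values was not tested.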

How the data were processed

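The table holds 4 arrays, 1 per group, of mouse epididymal white fat RNA that the labels describe as pooled. As deposited, the values were whole-number probe set intensities on a linear scale, with 12.1% to 12.4% per array at or below 0. Which software, background step and normalization the authors used is not stated by the labels or the table. The 4 arrays had medians of 315 or 316 as deposited, so each change is relative to a shared distribution. The titles of 2 arrays write the compound number as 316234 and the descriptions as 316243.

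Control probe sets (66 of 12488) were left out. Arrays were brought to 1 mean, taken over values between percentiles 2 and 98 (factors from 0.9983 to 1.0008), raised to a floor at percentile 40 and put on the log2 scale, with Python 3.11.15, numpy 2.4.6 and pandas 2.3.3. Of 12422 probe sets, 10833 had 1 symbol, 396 several and 1193 were not listed; only the first were used. A gene is represented by its brightest probe set over the 4 arrays. A gene passed when its ratio after the floor was at least 2-fold, or 1.5-fold where said. Intensities are printed after scaling and before the floor, and levels of different probe sets are not compared. The steps were tested on simulated data. Named are all 9 genes, Hspa1a as a near-identical copy of Hspa1b, up to 4 genes per further list with the largest change past 2-fold on any day, and the 5 genes nearest to the one of largest range; Hspa9, Hspa4, Bag1, Fkbp4, Camp, Elane, S100a8, S100a9, Hsf1, Hsf2, Hsf4, Ldhc, Lcn5 and Adam7 were named after their values were seen. Hspb11, Cryaa, Hspa2, Stip1, Hspa5 and Hsp90b1 were also named after their values were seen. The genes and lists were chosen with earlier results of these data known. Alternatives were other floors, scalings, probe set rules, a pseudocount and other fold limits.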

Additional observations from a re-analysis of the deposited data

How the results depend on the processing

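Across 8 alternatives of floor, scaling, probe set rule and pseudocount, 3 of 192 recomputed log2 changes of the 8 heat shock protein genes moved by at least 1 error between probe sets, all with the mean over probe sets: Hsp90aa1 at day 1 (0.34, against 0.69 by the brightest probe set) and Hspd1, whose sign turned, at day 1 (-0.03, against 0.41) and day 6 (0.63, against -0.17). The counts of these genes past 2-fold stayed at 1 higher at day 1 and 0 otherwise under those alternatives. With the limit at 1.5-fold, 2 were higher and 1 lower at day 1, and 2 were lower at day 3 and 2 at day 6.

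Among the 65 other cytosolic and mitochondrial chaperone genes above the floor, a 1.5-fold limit gave 9 higher and 9 lower at day 1. Of all genes, 15.9% and 18.4% passed it. At day 3 it gave 1 higher and 8 lower, beside 9.91% and 10.6% of all genes. At day 6 it gave 2 higher and 6 lower, beside 7.95% and 7.82%. A 3-fold limit gave 0 in each. The number at least 2-fold lower at day 1 was 5 with the floor at percentile 25 and 1 with the floor at percentile 60, with the mean over probe sets, without probe sets of shared sequence or with the pseudocount. At day 3 it was 1 with the mean over probe sets and 0 with the pseudocount, and at day 6 it was 0 under those 4. Fewer probe sets or compressed low values are built into these settings. No paired analysis was possible because each group has 1 array. With 1 array per group no replicate could be left out, and low intensities limit Hspb1 and the dim probe sets of Hsp90aa1 and Hspd1.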

Other observations

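Cct3, a chaperonin subunit named after its values were seen, has 3 probe sets, which were 1.95-fold, 2.2-fold and 2.06-fold higher at day 1 than in control and within 1.35-fold of control at day 6.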
